A study of Rattus norvegicus with 18 samples.

Results

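Potassium and calcium channel genes were followed in a rat insulinoma line that makes a misfolding insulin on demand. The line was INS-1, a pancreatic beta-cell tumour line, as 1 sorted clone (#4S2) with a doxycycline-inducible fusion of mutant insulin 2 (C96Y) to EGFP, so every value below describes a single clone. Cultures were harvested at 24 h, at 48 h and at 5 days, either with doxycycline (2 µg/ml) or, as controls of the same clone with the same construct, without it. No array held cells given doxycycline without the construct, or cells with induced wild-type insulin. Effects of the drug, of the fusion protein and of its misfolding therefore cannot be told apart in the channel values. The paper states, without showing the results, that doxycycline left Grp78 and Chop unchanged in parental INS-1 cells. Each of the 6 groups had 3 arrays from independent experiments (18 Affymetrix Rat Genome 230 2.0 arrays in all), and a doxycycline culture and the control culture with the same time and replicate number formed a pair (9 pairs). The channel genes were those of the array annotation with a symbol that starts with Kcn or Cacn, apart from Kcnj11. They were chosen by their measured signal, as those with a single-gene probe set whose mean log2 signal over the 18 arrays reached the median of all 31042 probe sets, with 1 probe set a gene. This gave 30 of 99 channel genes, out of 14217 genes that the array measured with a probe set of their own. The 30 genes were fitted together with all 15521 probe sets above that limit.

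In beta cells, closure of potassium channels by nucleotides depolarises the membrane, voltage-gated calcium channels then open, and the entering calcium drives insulin release. Voltage-gated and calcium-activated potassium channels end the action potential and set the pace of firing, and two-pore channels hold the resting potential. Auxiliary subunits carry no current of their own and set how much channel reaches the membrane and how it gates. C96Y breaks a disulfide bond of insulin, and the misfolded protein collects in the endoplasmic reticulum (ER) and starts the ER stress response.

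The 30 genes were spread over all channel classes. They held 5 of the 10 pore subunits and 4 of the 14 auxiliary subunits of calcium channels. Among potassium channels they held 7 of 31 voltage-gated pores, 5 of 11 auxiliary subunits, 3 of 7 genes of ion-activated channels, 4 of 11 two-pore channels and 2 of 15 inward rectifiers. The limit lay at a log2 signal of 6.93. Kcnj3 (7.06) and Kcnab3 (7.08) lay just inside it, and Cacna1b (6.86) and Kcnj14 (6.84) just outside. The highest mean log2 signals were 11.43 for Cacnb3, 11.14 for Cacna2d1 and 10.12 for Kcnma1, and since probes differ in brightness, signals of different genes do not rank their transcripts. In the 6 control arrays of 24 h and 48 h the highest signal of a channel gene was a median of 1.59 times its lowest, against 1.40 times over all tested probe sets. It was over 2 times the lowest for 7 of the 30 genes (23.3%), against 6.83% of tested probe sets. With the 3 controls of 5 days, 1 of them from the pair labelled replicate 1 that ran against the other pairs, 11 of the 30 were over 2 times (36.7%), against 18.7%. The tested probe sets were not matched to the channel genes for signal, and the part of signal level in these ranges was not tested. The widest range over the 6 early controls was that of Cacna1h (4.20-fold), and Kcnip1 had 1.36-fold there and 5.01-fold over all 9.

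The libraries were checked before the channel genes were compared. Of 7 genes known to respond to ER stress (Sdf2l1, Hspa5, Dnajb9, Herpud1, Ddit3, Trib3 and Creld2), all 7 had a ratio of doxycycline over control above 1 in each of the 6 pairs at 24 h and 48 h and in pair 3 at 5 days. In pair 2 at 5 days 5 of the 7 did, and in the pair labelled replicate 1 at 5 days 0 of the 7 did, with a median log2 ratio of -1.44. Over all tested probe sets the log2 ratios of that pair correlated negatively with those of every 24 h and 48 h pair (r from -0.45 to -0.31), while the 24 h and 48 h pairs correlated positively with each other (0.26 to 0.52). The doxycycline library of pair 2 at 5 days had a 3′ to 5′ signal ratio of GAPDH, a sign of RNA integrity, of 2.91, against 1.05 to 1.19 in the other 17 libraries. The 5-day values are therefore given pair by pair. Of 10 beta-cell markers, 8 were on the array and all 8 passed the signal limit, among them Ins1, Ins2, Iapp and Slc2a2. Of these 8, Mafa, a transcription factor of mature beta cells, was called lower at 48 h (limma log2 ratio -1.07 ± 0.07, adjusted p = 0.0118). Of all tested probe sets 1.19% were called lower then. At an unadjusted p under 0.05, 5 of the 8 were lower at 48 h, against 12.5% of all tested. The median log2 ratio of the 8 was -0.07 at 24 h and -0.26 at 48 h, against -0.01 at both times over all tested. No acinar (5 measured), fibroblast (5) or leukocyte (3) marker passed the limit, 4 of 5 neuronal markers did (Snap25, Map2, Rbfox3 and Nefm), and of 5 measured markers of other islet cells only Gcg, which encodes glucagon, did, and it was called lower at 48 h (log2 ratio -2.71 ± 0.11, adjusted p = 0.00669). The summed signal of those 5 markers was 368 to 401 with doxycycline and 1591 to 2186 in control cells at 48 h, and 214 to 1215 with doxycycline and 435 to 2467 in control cells at 24 h, and the part of these markers in the channel values was not tested.

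None of the 30 channel genes passed the test at 24 h or 48 h by the probe set used for it. A dimmer probe set of Kcnip3, described further below, passed at 48 h. Paired ratios were tested with limma, with p-values adjusted by Benjamini-Hochberg over all 15521 probe sets and a threshold of 0.05. At 24 h, 0 of 30 genes were higher, where 0.193% of all tested probe sets were, and 0 of 30 were lower, where 0.0129% were. At 48 h, 0 of 30 were higher, against 2.33% of all tested, and 0 of 30 were lower, against 1.19%. Beside shares this small, a count of 0 among 30 genes is no result particular to channels. At an unadjusted p under 0.05, 3 genes were higher at 24 h (10% of the 30, against 7.75% of all tested) and 6 were lower (20%, against 6.94%). At 48 h, 3 genes were higher (10%, against 12.2%) and 6 lower (20%, against 12.5%). Run on the same values, the methods' t-test called 0 channel genes at both times after adjustment. Over all 15521 tested probe sets it then called 0 at 24 h, and 121 above and 41 below control at 48 h. Before adjustment it called 1 channel gene in each direction at 24 h, where 486 of all tested were higher and 293 lower. At 48 h it called 0 channel genes above and 2 below control, where 1264 and 1082 of all tested were. The median log2 ratio of the 30 genes was -0.02 at 24 h and 0.05 at 48 h, against -0.01 at both times over all tested probe sets. These are bulk RNA values, in which fewer cells that carry a transcript and less of it in each cell cannot be told apart.

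The size of the effects was bounded at both early times for the probe set used for each gene, its brightest. By that probe set all 30 channel genes had a 95% interval of the log2 ratio inside a 2-fold difference in either direction at 24 h and at 48 h. So did 98.9% and 97.1% of all tested probe sets. The bound does not cover dimmer probe sets of the same genes. In pair 3 at 48 h the second probe sets of Kcnip1 and Cacna1a had log2 ratios of -1.30 and -1.12. Inside a 1.5-fold difference lay the intervals of 26 of the 30 genes at 24 h (86.7%, against 90% of all tested) and of 19 at 48 h (63.3%, against 80.1%). The study's own rule asked for a 2-fold difference in 2 or more of the 3 experiments. The paper worked on GeneSpring ratios and also describes its counted genes as statistically significant in at least 2 of 3 experiments. Here the 2-fold rule alone was applied, to the quantile-normalized signal of the probe set used for each gene. None of the 30 channel genes met the 2-fold rule at 24 h or 48 h. Of all tested probe sets 0.361% met that rule at 24 h and 0.696% at 48 h, in either direction. The median size of the log2 ratio, whatever its sign, was 0.12 at 24 h and 0.18 at 48 h for the channel genes, against 0.10 and 0.13 over all tested.

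**Figure D1:**
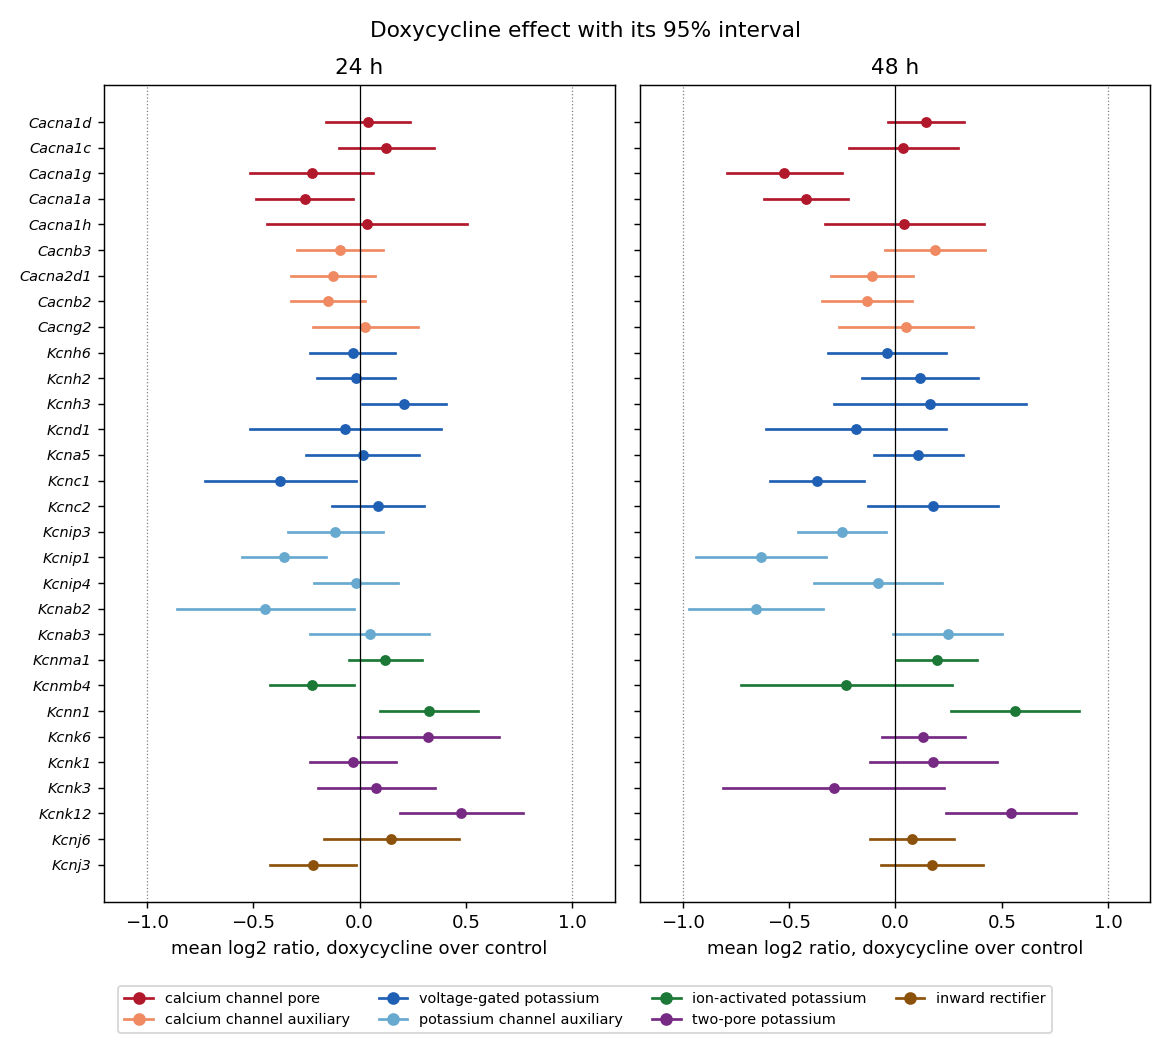
Mean log2 ratio of doxycycline over control (x axis, dots) with its 95% interval (bars) for each of the 30 channel genes (y axis, coloured by class) at 24 h and 48 h, 3 pairs each. Dotted lines mark a 2-fold difference in either direction, and all bars lie between them.

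Groups that did not overlap, with all 3 doxycycline arrays on one side of all 3 control arrays, were found for a few genes at each time. At 24 h these were Kcnk6 and Kcnn1 above control (2 of 30, against 5.03% of all tested) and Kcnip1, Kcnmb4 and Cacna1a below it (3 of 30, 10%, against 3.72%). At 48 h they were Kcnk12, Kcnn1 and Kcnab3 above control (3 of 30, against 11.3%) and Cacnb2, Kcnip1 and Kcnab2 below it (3 of 30, against 10.8%). Kcnn1 above control and Kcnip1 below control were the genes in this state at both times. How many of all tested probe sets were in this state at both times was not counted, so these 2 genes cannot be set against a share.

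Among the pore subunits of calcium channels, the L-type genes stayed close to control and the lowest ratios were those of a P/Q-type and a T-type gene. Cacna1d, an L-type pore of beta cells, had signals of 541, 702 and 789 with doxycycline at 48 h (replicates 1 to 3), against 489, 642 and 707 in control cells. Its ratio was above 1 in all 3 pairs, but the groups overlapped and the log2 ratio was 0.14 ± 0.07 (SE, n = 3 pairs; limma adjusted p = 0.277). Cacna1c, the other L-type pore, had log2 ratios of 0.13 ± 0.09 at 24 h and 0.04 ± 0.10 at 48 h. Cacna1a, the P/Q-type pore, had signals of 269, 282 and 315 with doxycycline at 24 h, against 357, 348 and 330 in control cells. At 48 h it had 219, 314 and 261 with doxycycline, against 297, 392 and 369 in control cells. All 6 pairs were below control, with groups apart at 24 h and overlapping at 48 h. The log2 ratio of Cacna1a was -0.26 ± 0.09 at 24 h (adjusted p = 0.296) and -0.42 ± 0.08 at 48 h (adjusted p = 0.0615). Cacna1g, a T-type pore that opens near the resting potential, had 187, 304 and 291 with doxycycline at 48 h, against 229, 447 and 478 in control cells. Each pair was lower, but replicate 1 was low in both groups, so the groups overlapped, and the log2 ratio was -0.52 ± 0.10 (adjusted p = 0.0693). At 24 h the Cacna1g ratio was above 1 in pair 1 and below 1 in the others (log2 ratio -0.23 ± 0.12, adjusted p = 0.440). Cacna1h, the second T-type pore, had log2 ratios from -0.51 to 0.44 over the 6 pairs and means of 0.03 at 24 h and 0.04 at 48 h.

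The auxiliary subunits of calcium channels had mean log2 ratios between -0.15 and 0.19 at both early times. Cacnb3 and Cacnb2 encode cytosolic beta subunits that bind the pore, Cacna2d1 an extracellular alpha2delta subunit, and Cacng2 the protein stargazin, best known for carrying glutamate receptors. Cacnb3 had 3803, 3102 and 1991 with doxycycline at 24 h, against 3919, 3634 and 1992 in control cells, a spread between experiments that was far wider than the difference within a pair. At 48 h it had 3648, 2122 and 2130 with doxycycline, against 2895, 1833 and 2114 in control cells. Its log2 ratio was -0.09 ± 0.08 at 24 h and 0.19 ± 0.09 at 48 h (adjusted p = 0.655 and 0.286). Cacna2d1 and Cacnb2 were below control in all 6 pairs by small amounts, with log2 ratios of -0.12 and -0.11 for Cacna2d1 and of -0.15 and -0.13 for Cacnb2 at 24 h and 48 h. Cacng2 had log2 ratios of 0.03 at 24 h and 0.05 at 48 h.

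Of the 7 voltage-gated potassium pores, Kcnc1 alone had a ratio below 1 in all 6 pairs, and none had a ratio above 1 in all 6. Kcnc1 encodes a fast channel that opens only at strong depolarisation. Its signals were 175, 121 and 152 with doxycycline at 24 h, against 298, 132 and 177 in control cells, and 104, 149 and 134 with doxycycline at 48 h, against 124, 187 and 193 in control cells. The groups overlapped at both times, and the log2 ratio was -0.37 ± 0.14 at 24 h (adjusted p = 0.319) and -0.37 ± 0.09 at 48 h (adjusted p = 0.0874). Kcnh6, an ether-a-go-go related channel and the gene of highest signal in this class, had 748, 1000.1 and 985 with doxycycline at 48 h, against 920, 924 and 940 in control cells. The pairs fell on both sides of 1, and the log2 ratios were -0.03 ± 0.08 at 24 h and -0.04 ± 0.11 at 48 h. Its relative Kcnh2, the cardiac hERG channel, had log2 ratios of -0.02 at 24 h and 0.12 at 48 h. Kcnh3 had a log2 ratio of 0.21 ± 0.08 at 24 h (adjusted p = 0.319), with all 3 pairs above control, and of 0.16 ± 0.17 at 48 h, where 2 of the 3 pairs were below it. Kcnd1, an A-type channel, Kcna5, a delayed rectifier, and Kcnc2, a relative of Kcnc1, had log2 ratios from -0.18 (Kcnd1 at 48 h) to 0.18 (Kcnc2 at 48 h).

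Among the cytosolic auxiliary subunits of potassium channels, Kcnab2 had the lowest log2 ratio of the 30 genes at 24 h and at 48 h, with Kcnip1 next at 48 h. Kcnip1, Kcnip3 and Kcnip4 encode calcium-binding proteins that attach to A-type channels, and Kcnab2 and Kcnab3 encode beta subunits of Shaker-type channels that resemble aldo-keto reductases. Kcnip1 had signals of 808, 835 and 655 with doxycycline at 24 h, against 947, 1101 and 887 in control cells. At 48 h it had 738, 913 and 616 with doxycycline, against 1098, 1210 and 1165 in control cells. The doxycycline arrays lay below all control arrays of their time, and the log2 ratio was -0.36 ± 0.08 at 24 h (1.28-fold lower, adjusted p = 0.170) and -0.63 ± 0.12 at 48 h (1.55-fold lower, adjusted p = 0.0632). Kcnab2 had 112, 122 and 92.3 with doxycycline at 48 h, against 144, 198 and 172 in control cells, and these groups did not overlap either. Its log2 ratio at 48 h was -0.65 ± 0.12 (1.57-fold lower, adjusted p = 0.0632). At 24 h pairs 1 and 2 of Kcnab2 were lower and pair 3 was at 175 with doxycycline and 170 in control cells (log2 ratio -0.44 ± 0.17, adjusted p = 0.315). These signals lay near the limit of 122, so each rests on dim probes. Kcnip3, which also acts as a repressor of transcription, had 1081, 703 and 712 with doxycycline at 48 h, against 1399, 822 and 790 in control cells. All 3 pairs were lower, the groups overlapped, and the log2 ratio was -0.25 ± 0.08 (adjusted p = 0.150). Kcnab3 went the other way at 48 h, with 149, 136 and 128 with doxycycline against 115, 107 and 126 in control cells (log2 ratio 0.25 ± 0.10, adjusted p = 0.214). Kcnip4 had log2 ratios of -0.02 at 24 h and -0.08 at 48 h.

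**Figure D2:**
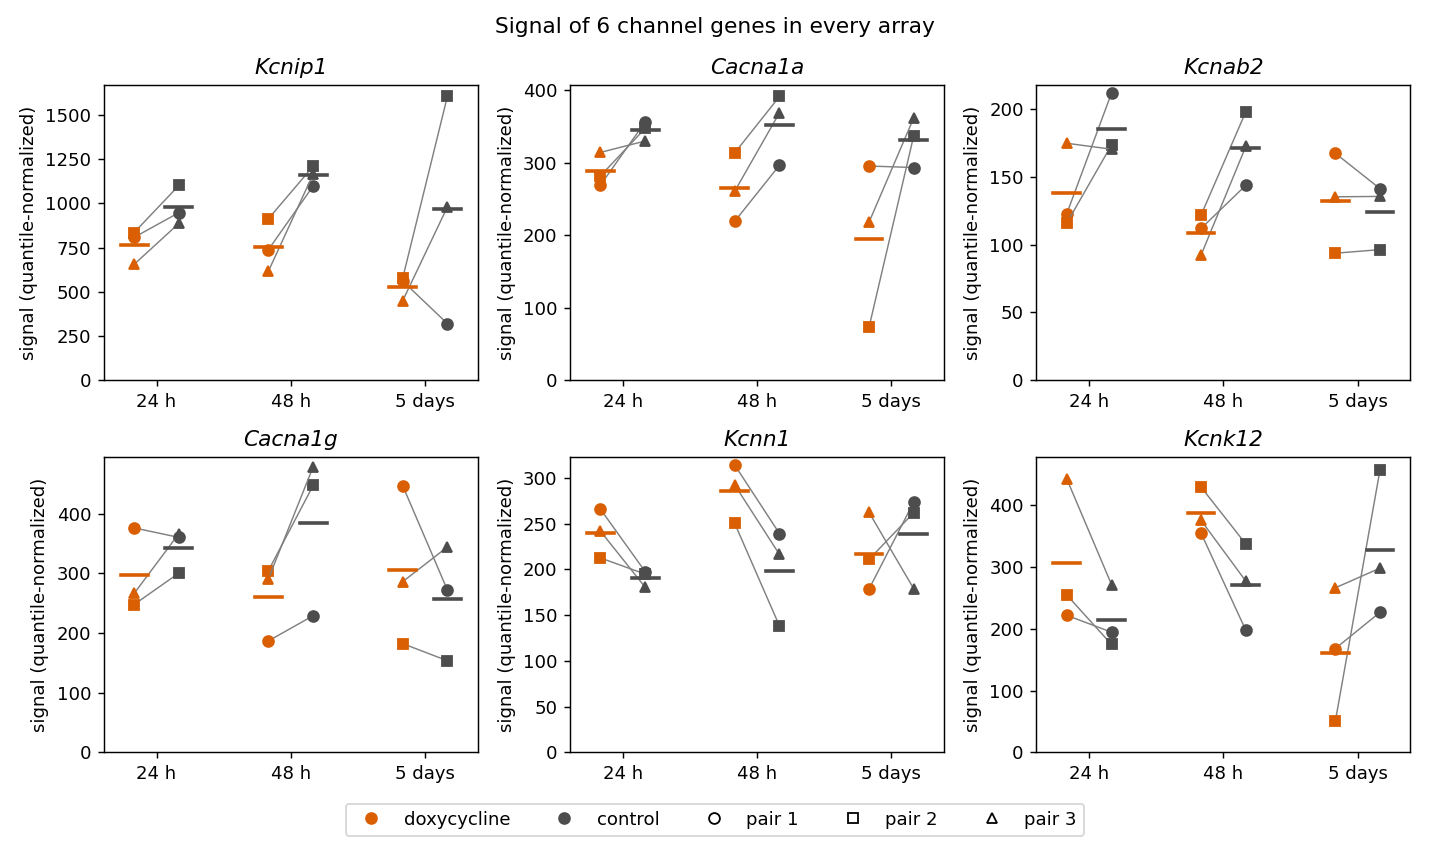
Quantile-normalized signal (y axis, linear from 0) in every array for 6 channel genes, with doxycycline to the left of control at each time, lines joining pairs and short bars at the group means. Kcnip1 at 24 h and 48 h, Kcnab2 at 48 h, Cacna1a at 24 h, Kcnn1 at both early times and Kcnk12 at 48 h show doxycycline and control arrays that do not overlap.

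Promoter sequences are shown for the 3 genes with the lowest adjusted p at 48 h, Cacna1a, Kcnab2 and Kcnip1, since the treatment starts ER stress and its transcription factors bind short motifs near gene starts. The windows run from 250 bases before to 50 after a start site (RefSeq, build GRCr8, minus strand, 5′ to 3′), and such windows were at hand for 18 of the 30 genes (23 windows, as some genes have several starts). Capitals mark CCACG and CCAAT on either strand, the parts of the ER stress response element, which has 9 bases of any kind between them.
Cacna1a, chr19:40650419-40650718: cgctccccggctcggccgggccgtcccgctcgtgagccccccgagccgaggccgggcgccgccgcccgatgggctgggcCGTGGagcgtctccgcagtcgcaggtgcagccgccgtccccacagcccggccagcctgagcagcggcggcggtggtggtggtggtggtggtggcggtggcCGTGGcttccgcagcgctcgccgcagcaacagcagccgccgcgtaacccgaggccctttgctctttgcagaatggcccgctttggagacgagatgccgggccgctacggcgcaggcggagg
Kcnab2, chr5:168270711-168271010: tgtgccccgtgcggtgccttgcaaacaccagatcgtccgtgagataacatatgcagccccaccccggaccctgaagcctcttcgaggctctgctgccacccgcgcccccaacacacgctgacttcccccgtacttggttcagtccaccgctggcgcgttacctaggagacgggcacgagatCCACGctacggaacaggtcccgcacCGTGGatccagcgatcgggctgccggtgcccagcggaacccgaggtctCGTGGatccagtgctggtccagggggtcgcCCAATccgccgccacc
Kcnip1, chr10:19092976-19093275: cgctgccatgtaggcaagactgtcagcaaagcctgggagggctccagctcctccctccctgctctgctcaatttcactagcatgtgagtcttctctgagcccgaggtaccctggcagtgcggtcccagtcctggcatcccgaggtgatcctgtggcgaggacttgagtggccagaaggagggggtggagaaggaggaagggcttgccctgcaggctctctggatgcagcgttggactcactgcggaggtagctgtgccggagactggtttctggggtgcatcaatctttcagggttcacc
Kcnip1, chr10:18940760-18941059: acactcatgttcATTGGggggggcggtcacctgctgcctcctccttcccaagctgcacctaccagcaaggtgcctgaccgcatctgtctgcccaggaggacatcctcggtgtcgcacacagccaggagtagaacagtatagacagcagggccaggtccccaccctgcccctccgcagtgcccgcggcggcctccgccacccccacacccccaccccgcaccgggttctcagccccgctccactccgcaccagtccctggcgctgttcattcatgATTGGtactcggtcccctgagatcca
Cacna1a held 2 copies of CCACG, Kcnab2 held 3 copies of it and 1 of CCAAT, and of the windows of Kcnip1 one held 2 copies of CCAAT and the other neither motif. Over the channel genes CCACG was in 10 of 23 windows (43.5%), against 31.6% of all 33469 windows in the table, and CCAAT was in 6 (26.1%), against 37.5%. The whole element was in 0 of the 23 windows (0.0657% of all windows), as were TGACGTGG, a site of the stress factors ATF6 and XBP1 (0.595% of all), and TGACGTCA, the cyclic AMP response element (1.83% of all). The motif TGATGNAAN, bound by ATF4 with C/EBP proteins, was in both windows of Kcnc2 and in no other of the 23 (3.97% of all windows). All motifs were searched on both strands, and CCAAT and CCACG are contained in the longer element. Some windows of a gene overlap and share their sites, and counted by gene CCACG was in 7 of 18 and CCAAT in 5 of 18. The channel gene windows had a median of 66.7% G and C, against 51.7% over all windows. A match describes letters only.

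Kcnn1 and Kcnk12 had the highest log2 ratios of the 30 genes at 24 h and 48 h. Kcnn1 encodes a small-conductance channel that opens with cytosolic calcium. It had 266, 213 and 242 with doxycycline at 24 h, against 198, 195 and 181 in control cells, and 314, 250.4 and 292 with doxycycline at 48 h, against 239, 138 and 216 in control cells. The doxycycline arrays lay above all control arrays at both times. The log2 ratio of Kcnn1 was 0.33 ± 0.09 at 24 h (adjusted p = 0.225) and 0.56 ± 0.12 at 48 h (1.48-fold, adjusted p = 0.0740). Kcnk12 encodes a two-pore subunit that passes little current on its own. It had 222, 255 and 443 with doxycycline at 24 h, against 195, 175 and 272 in control cells, and 355, 430 and 376 with doxycycline at 48 h, against 198, 338 and 277 in control cells. The groups overlapped at 24 h and were apart at 48 h, with log2 ratios of 0.48 ± 0.12 (adjusted p = 0.185) and 0.54 ± 0.12 (1.46-fold, adjusted p = 0.0788). Kcnma1, the pore of the large-conductance calcium-activated channel, was above control in all 6 pairs, with log2 ratios of 0.12 ± 0.07 at 24 h and 0.19 ± 0.07 at 48 h (adjusted p = 0.475 and 0.192). Kcnmb4, its beta subunit, had 357, 321 and 363 with doxycycline at 24 h, against 391, 366 and 463 in control cells (log2 ratio -0.22 ± 0.08, adjusted p = 0.299). At 48 h the Kcnmb4 groups overlapped, as only pair 3 was lower, at 231 with doxycycline and 401 in control cells.

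None of the remaining two-pore channels and inward rectifiers was called either. Kcnk6, a two-pore channel of the TWIK family, had 422, 426 and 562 with doxycycline at 24 h, against 388, 382 and 348 in control cells. These groups were apart, mostly through pair 3, and the log2 ratio was 0.32 ± 0.13 at 24 h (adjusted p = 0.350) and 0.13 ± 0.08 at 48 h. Kcnk1, also of that family, and Kcnk3, an acid-sensitive leak channel, had log2 ratios of -0.03 and 0.08 at 24 h and of 0.18 and -0.29 at 48 h, and the Kcnk3 pairs lay on both sides of 1 at both times. Kcnj6 and Kcnj3 encode subunits of the inward rectifier that G proteins open. Kcnj6 had 200, 221 and 247 with doxycycline at 48 h, against 202, 198 and 231 in control cells, a log2 ratio of 0.08 ± 0.08. Kcnj3, the dimmest of the 30, had a log2 ratio of -0.22 ± 0.08 at 24 h (3 of 3 pairs below control, adjusted p = 0.314) and of 0.17 ± 0.09 at 48 h (3 of 3 pairs above it, adjusted p = 0.329).

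**Figure D3:**
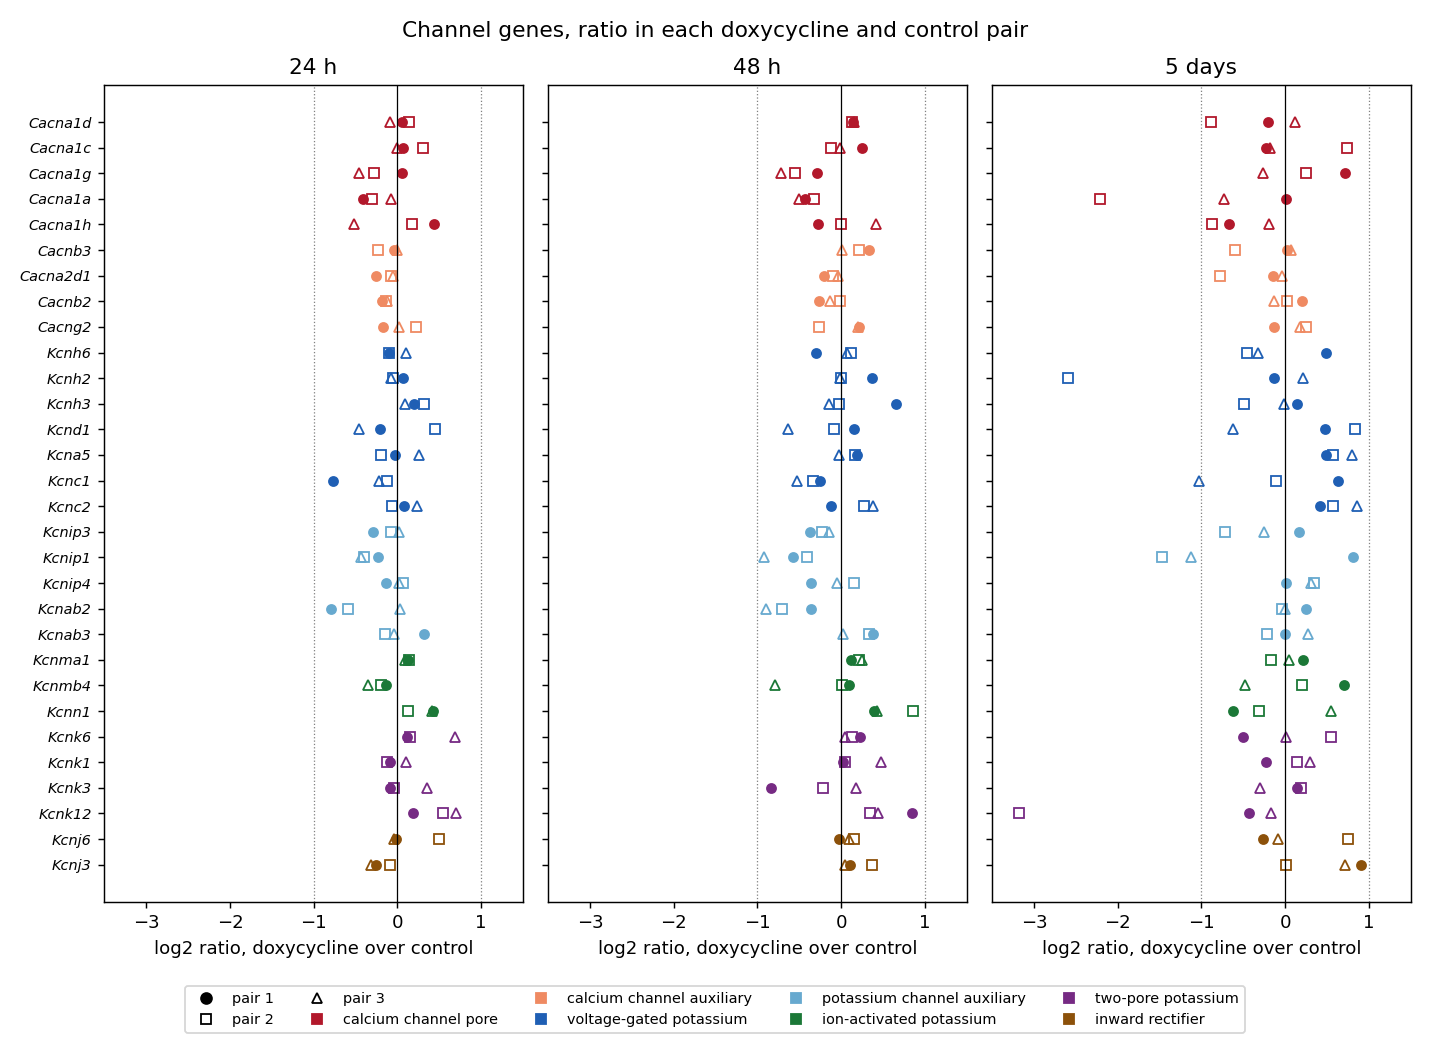
Log2 ratio of doxycycline over control (x axis) in each of the 3 pairs at each time for the 30 channel genes (y axis, coloured by class, with a marker shape for each pair). Dotted lines mark 2-fold; at 24 h and 48 h all ratios lie between them, and at 5 days the lowest are Kcnk12 (-3.19), Kcnh2 (-2.60) and Cacna1a (-2.21) in pair 2.

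The effects at 24 h and 48 h, which came from separate arrays with separate controls, ran alike for most genes. Over the 30 genes the mean log2 ratios of both times had Pearson's r of 0.82 and Spearman's rho of 0.71, as a description across genes, which are not independent replicates, against 0.68 and 0.56 over all tested probe sets. The sign was the same at both times for 25 of 30 genes (83.3%), against 70.3% of tested probe sets. Kcnma1, Kcnk6, Kcnk12 and Kcnn1 were above control in all 6 pairs, and Cacna2d1, Cacnb2, Kcnip1, Cacna1a and Kcnc1 below it. These are 13.3% of the 30 genes above control, against 10.1% of all tested probe sets, and 16.7% below it, against 10.7%. They hold for the 1 probe set used for each gene. Dimmer probe sets of Kcnma1, Kcnk6 and Cacnb2 did not keep 1 sign over the 6 pairs, while those of Kcnip1 and Cacna1a did. The difference between the 2 times was tested as a contrast over the 12 arrays. No channel gene passed it in limma, higher (0% of all tested) or lower (0% of all tested), with a lowest adjusted p of 0.689 (Kcnj3). Unadjusted, 1 channel gene (Kcnj3) was higher at 48 h than at 24 h, where 3.35% of all tested were, and 0 were lower, where 3.32% were.

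**Figure D4:**
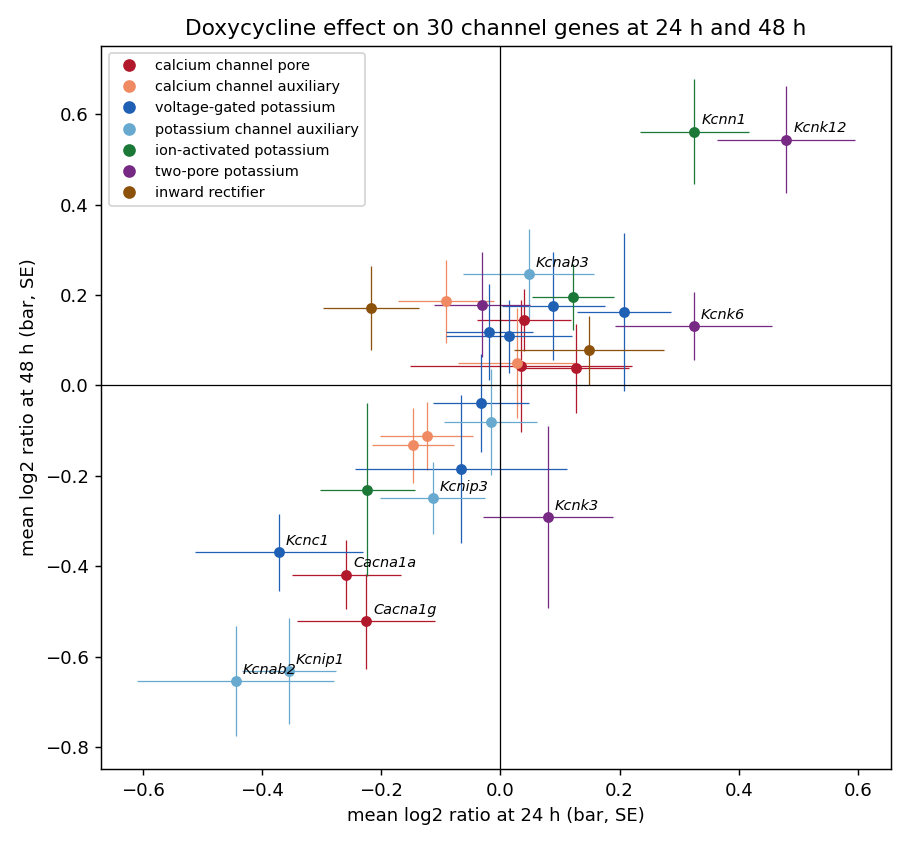
Mean log2 ratio of doxycycline over control at 48 h (y axis) against that at 24 h (x axis) for the 30 channel genes, with SE bars from limma (3 pairs at each time). Kcnn1 and Kcnk12 lie at the upper right and Kcnab2, Kcnip1, Cacna1g, Cacna1a and Kcnc1 at the lower left.

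Fitting the 24 h and 48 h arrays together, which shares 1 estimate of spread between the times, moved 5 channel genes past the threshold at 48 h. Kcnn1 (adjusted p = 0.0249) and Kcnk12 (0.0414) were then called higher (2 of 30, 6.67%, against 5.64% of all tested). Kcnip1 (adjusted p = 0.0143), Cacna1a (0.0251) and Cacna1g (0.0378) were called lower (3 of 30, 10%, against 4.73%). Without quantile normalization Kcnab2 was called lower at 48 h (adjusted p = 0.0382; 1 of 30, 3.33%, against 1.48%). By construction the joint fit leaves each log2 ratio as it was and changes its error, and the log2 ratio of Kcnab2 was -0.65 with and without quantile normalization.

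At 5 days no channel gene passed the test as labelled, and the pairs disagreed. The counts were 0 of 30 higher and 0 of 30 lower in limma, with 0% of all tested probe sets called in either direction. Unadjusted, Kcna5 and Kcnc2 were higher (2 of 30, 6.67%, against 1.11%) and Cacna1h was lower (1 of 30, 3.33%, against 1.37%). The methods' t-test, unadjusted, gave 0 and 0 channel genes, where 179 of all 15521 tested probe sets were higher and 106 lower. The arrays of the groups did not overlap for Kcnj3 above control (1 of 30, against 3.73%) and for 0 of 30 genes below control (2.76%). The 95% intervals were wide, and 20 of the 30 lay inside a 2-fold difference (66.7%, against 79.4% of all tested). Kcna5 had 179, 297 and 273 with doxycycline at 5 days, against 128, 200 and 157 in control cells. Kcnc2 had 160, 284 and 138 with doxycycline, against 119, 190 and 76.0 in control cells. Each of these was higher within every pair, pair 1 included, with log2 ratios of 0.62 ± 0.17 and 0.62 ± 0.18 (adjusted p = 0.935 for both). Cacna1h had 164, 287 and 257 with doxycycline, against 261, 525 and 295 in control cells, lower in every pair (log2 ratio -0.58 ± 0.20, adjusted p = 0.935). Cacna2d1 was also lower in every pair, by a mean log2 ratio of -0.32 ± 0.22. With the labels of pair 1 exchanged, the log2 ratios were 0.30 ± 0.30 for Kcna5, 0.34 ± 0.29 for Kcnc2, -0.13 ± 0.32 for Cacna1h and -0.23 ± 0.23 for Cacna2d1. The unadjusted counts were then 0 of 30 higher, against 3.81% of all tested, and 3 of 30 lower (Kcnip1, Kcnh6 and Kcnc1, 10%), against 2.27%.

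Kcnip1 at 5 days was the one channel gene that met the study's 2-fold rule. It had 561, 577 and 449 with doxycycline, against 320, 1605 and 980 in control cells, so that pairs 2 and 3 were below control (log2 ratios -1.48 and -1.13) and the pair labelled replicate 1 was above it (0.81). This is 1 of 30 genes, where 0.438% of all tested probe sets met the rule in this direction. The mean log2 ratio was -0.60 ± 0.48 as labelled and -1.14 ± 0.19 with the labels of pair 1 exchanged (adjusted p = 0.935 and 0.715). With the labels exchanged and all 18 arrays in 1 fit, Kcnip1 was the single channel gene called lower (adjusted p = 0.00867; 3.33%, against 0.908% of all tested), and none was called higher. Without pair 2, which holds the library with the high GAPDH ratio, its log2 ratio as labelled was -0.16 ± 0.44.

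The lowest single ratios at 5 days came from that library. In pair 2, Kcnk12 was at 50.3 with doxycycline and 458 in control cells, Kcnh2 at 80.7 with doxycycline and 488 in control cells, and Cacna1a at 73.0 with doxycycline and 338 in control cells. In the other pairs Kcnh2 had log2 ratios of -0.13 and 0.21, and the mean log2 ratio of Kcnk12 without pair 2 was -0.30 ± 0.19, against -1.26 ± 0.63 with it. Of the 30 channel genes 7 had their lowest signal of all 18 arrays in this library (23.3%), as did 21.8% of all tested probe sets. The part of RNA integrity in these values was not tested.

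Of the 30 genes, 7 were read by more than 1 probe set above the limit, and some of these probe sets differed in their calls. A second probe set for Kcnip3, of lower signal, had log2 ratios of -0.53, -0.66 and -0.54 at 48 h. Its mean was -0.58 ± 0.07 and it passed the test (adjusted p = 0.0335), while the brighter probe set gave -0.25 ± 0.08 (adjusted p = 0.150). This was the single probe set of a channel gene in the set of 30 that was called. Of all tested probe sets 1.19% were called lower at 48 h, so 1 such call is no result particular to channels. It was singled out after its values were seen, and which of the probe sets follows the transcript was not tested. For Kcnip1 the second probe set gave -0.31 ± 0.11 at 24 h and -0.77 ± 0.19 at 48 h, and for Cacna1a -0.67 ± 0.09 at 24 h (adjusted p = 0.0799) and -0.55 ± 0.19 at 48 h, all with the sign of the first. For Cacng2 the second probe set gave 0.59 ± 0.17 at 24 h (adjusted p = 0.232), where the first gave 0.03 ± 0.10. At 48 h the second probe set of Kcnma1 was below control in pair 3 (log2 ratio -0.60) and that of Kcnk6 in pair 1 (-0.12). A dimmer probe set of Cacnb2 was above control in pair 1 at 48 h (0.42), and another was in pair 1 at 24 h (0.03) and pair 2 at 48 h (0.05).

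Kcnj11, the pore of the nucleotide-gated potassium channel, is outside the 30 genes by rule. It had 1554, 1910 and 1915 with doxycycline at 48 h, against 2846, 3354 and 3215 in control cells, and was called lower there (log2 ratio -0.81 ± 0.07, adjusted p = 0.0187). Its partner Abcc8, the sulfonylurea receptor, had 1547, 2166 and 2211 with doxycycline and 2232, 2825 and 2912 in control cells at 48 h (log2 ratio -0.44 ± 0.07, adjusted p = 0.0548). Of 9 genes of other membrane channels above the limit (of 25 listed, Abcc8 among the 9) and of 21 genes of calcium stores, pumps and sensors (of 26), 0 passed the test in limma at any time. Of all tested probe sets 0.193% were called higher and 0.0129% lower at 24 h, 2.33% and 1.19% at 48 h, and 0% at 5 days. Unadjusted, 3 of the 9 were lower at 24 h (6.94% of all tested were) and 3 at 48 h (12.5% of all tested), with Abcc8 1 of the 3 at each time. Of the 21, 1 was higher and 4 lower at 24 h (7.75% and 6.94% of all tested), and 2 were higher and 1 lower at 48 h (12.2% and 12.5% of all tested). The median log2 ratio was -0.12 at both early times for the 9 membrane channel genes and -0.07 at both for the 21 others. Hcn2, a pacemaker channel, had the lowest log2 ratio of both lists at 24 h (-0.68 ± 0.10, adjusted p = 0.0902) and -0.04 ± 0.07 at 48 h (adjusted p = 0.763). Orai2, a store-operated calcium channel, had the highest at 48 h (0.36 ± 0.08, adjusted p = 0.0775).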

How the data were processed

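RNA from clone #4S2 cells was hybridised to Affymetrix arrays by the authors, who analysed ratios in GeneSpring. The deposited table holds 1 intensity per probe set and array, on a linear scale, and which program made it was not given in the sources used here. The authors' intensities shared a 2% trimmed mean near 500.2 on every array, so they were already scaled. Array number, 3 per group, limits the precision.

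Of 31099 probe sets, 57 controls were left out. Signals were quantile-normalized, floored at 5.99 (the 10th percentile), and taken to log2. Probe sets in the upper 50% of mean log2 signal (15521, at least 121.5) were tested with limma 3.58.1 in R 4.3.3, 6 arrays a time, with the pair as a block, and adjusted by Benjamini-Hochberg. The scripts were tested on simulated data. Deviations of same-numbered arrays from their group means correlated at 0.11 to 0.67, above 0.1 in every pair, and the study's ratios are per experiment, so pairs were kept. Gene names came from the platform annotation: 20826 probe sets had 1 gene, 436 several and 9780 none, and all 99 channel symbols are current in RefSeq.

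The members, gene lists and tests were chosen with earlier results of these data known. The rule for named genes took every member past the threshold, every member that met the 2-fold rule, the 3 highest and 3 lowest at each time among those of 1 sign in all pairs, the brightest of each class, those next to the limit, Kcnj11 and Abcc8, and called genes of the 2 lists of other excitability genes; the remaining members were named once each so that all 30 are accounted for, and Hcn2, Orai2, Mafa, Gcg and the second probe sets were chosen after their values were seen. Alternatives were another normalization, floor, filter, block, pooling of arrays, gene summary and test, each replicate left out, and the 5-day pair 1 labels exchanged. A contrast of 5 days with 48 h, with and without pair 2, and unadjusted counts with exchanged labels were added after seeing the data. Figures were drawn with matplotlib 3.10.9.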

Additional observations from a re-analysis of the deposited data

Results flagged for a closer look

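For 3 channel genes all 3 pairs went one way at one time and the other way at another. Cacnb3 was below control in every 24 h pair and above it in every 48 h pair, and the doxycycline effect at 48 h minus that at 24 h was 0.28 ± 0.12 on the log2 scale (limma, 12 arrays, adjusted p = 0.741). Kcnj3 did the same, with a difference of 0.39 ± 0.12 (adjusted p = 0.689). Kcnk12 was above control in every 48 h pair and below it in every 5-day pair, and the effect at 5 days minus that at 48 h was -1.8 ± 0.68 in the fit of all 18 arrays (adjusted p = 0.450). With the labels of the 5-day pair 1 exchanged that difference was -1.52 ± 0.78 (adjusted p = 0.717). Without pair 2 of 5 days, whose doxycycline library has the high GAPDH ratio, it was -0.84 ± 0.21 as labelled (adjusted p = 0.374) and -0.41 ± 0.23 with pair 1 exchanged (adjusted p = 0.778). None of the 3 differences passed the test under these settings.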

How the results depend on the processing

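The 7 counts of called channel genes were 0 in the paired limma fits and stayed 0 in 73 of their 77 alternative values. Among these were every fit without 1 replicate, the fit without the replicate block and the methods' t-test. At 24 h and 5 days these fits called 0 of all tested probe sets, as did every setting of the contrast between 24 h and 48 h. A count of 0 channel genes there shows no stability. At 48 h the fits without replicate 1, 2 and 3 called 0, 29 and 17 of all tested above control and 0, 7 and 6 below. The t-test called 121 above and 41 below then, the unblocked fit 208 and 67, and the blocked one 361 and 185. The channel gene counts that left 0 were at 48 h, with 2 higher and 3 lower in the joint fit of the 24 h and 48 h arrays. Without quantile normalization 1 was lower at 48 h. At 5 days 1 was lower when all 18 arrays were fitted with the pair 1 labels exchanged. The cause was not tested. Of 37 log2 ratios with 1 sign in all 3 pairs, followed through 414 alternative values, 6 moved past the threshold and 2 changed sign. Both were Kcnj3 at 5 days, at -0.06 with pair 1 exchanged, fitted alone or with all 18 arrays, against 0.54 as labelled. In many of the settings no change of sign was possible. Leaving out 1 replicate cannot change the sign of a ratio chosen for 1 sign in all 3 pairs. With the labels as given, the t-test and the fits with another block, filter or pooling of arrays leave each log2 ratio as it was. Kept signs in those settings show no stability. The number of arrays limits the precision, and signals near the limit, such as those of Kcnab2, Kcnab3 and Kcnj3, rest on dim probes.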
